A study of Solanum lycopersicum with 12 samples.

Results

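Transcripts of 4 defence genes were compared over 4 groups of tomato plants: PR1b1, PR-P2 and the chitinase genes CHI14 and CHI17. Every probe set whose symbol in the array annotation is one of these was taken, which gave 5 of the 10101 probe sets tested. PR1b1 has 2 probe sets, called S1 and S2 here after the ends of their identifiers, and PR-P2, CHI14 and CHI17 have 1 each. The rule takes probe sets by symbol alone, but these genes were picked with earlier results of the same data known.

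Pathogenesis-related proteins are small, often secreted proteins that plants make during attack by microbes and under several abiotic stresses, and they are sorted into numbered families by sequence. Chitinases cut chitin, a polymer of fungal cell walls. In tomato CHI14 and CHI9 are known as basic chitinases of the vacuole, and CHI17 and CHI3 as acidic chitinases of the space outside the cell. PR-P2 belongs to the PR-4 family, whose relatives in potato are wound-induced proteins, and PR1b1 to the PR-1 family of small cysteine-rich secreted proteins. Ethylene, salicylic acid and jasmonate are known to control many of these genes.

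The plants were the cultivar Moneymaker and PI365967, which is known as a salt-tolerant wild tomato. Their labelled organism is Solanum lycopersicum throughout. Seedlings grew in sterile sand with dilute Hoagland solution, moved to aerated tanks at 4 weeks of age, and after 3 d of acclimation, with 6 true leaves, received fresh solution with 0 or 200 mM NaCl for 5 h. This gave Moneymaker control, Moneymaker salt, PI365967 control and PI365967 salt, with 3 Affymetrix tomato arrays each (12 in all) and the pooled RNA of 3 whole plants on each array. In RNA of whole plants, fewer cells that express a gene and less of its RNA per cell cannot be told apart. The match of the probes to PI365967 transcripts was not checked for any gene. In every genotype difference below, transcript level and probe match thus cannot be told apart.

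The deposited intensities had array medians of 332.8 to 633.2, so differences were taken after quantile normalization, on the scale log2(intensity + 16). On this scale folds of dim probe sets come out smaller than on the raw scale. Replicate arrays correlated at Pearson's r of 0.9909 to 0.9946 across probe sets. Summed normalized signals, with the log2 taken back, of 8 leaf-leaning marker probe sets (photosystem, light-harvesting and plastocyanin genes) ran from 65550 to 74810 on Moneymaker control arrays, 46560 to 50460 under salt, 78420 to 80230 in PI365967 controls and 65510 to 68820 in PI365967 under salt. For 9 root-leaning markers (phosphate, ammonium and metal transporters, root peroxidases) the ranges were 23230 to 24030, 17990 to 18830, 20430 to 21230 and 15900 to 16790. Both normalized sums were lower under salt in both genotypes, while the sums of deposited root intensities overlapped in PI365967 (17400 to 24380 without salt, 13850 to 19260 with salt). Under salt in Moneymaker 7 leaf markers were lower and none higher, and 6 root markers were lower and 2 higher. In PI365967 4 leaf and 5 root markers were lower and none of either was higher. No marker was at 0 on any array, and the part of the markers in the results on the defence genes was not tested. In PI365967, control array 2 and salt array 3 were the highest of their group for PR1b1 S1, PR-P2 and the defence genes P4 and PR-5. Over the 24 probe sets of members and other defence genes, these arrays were the highest of their 3 for 16 and 17, against 34.7% and 33.9% of all probe sets. This was seen in the values first, and each result below was also computed without both arrays. Of the member probe sets, only the S2 difference of salt effects lost its call then.

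The chitinase genes CHI14 and CHI17 were higher under salt in both genotypes. CHI17 rose over 4-fold in Moneymaker and over 5-fold in PI365967, and CHI14 rose over 2-fold and over 3-fold. Both were lower in PI365967 than in Moneymaker, with and without salt.

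For CHI17 the Moneymaker control arrays 1 to 3 gave deposited intensities of 3928, 1750 and 1777, and the Moneymaker salt arrays gave 9568, 6296 and 9041. The PI365967 control arrays gave 1208, 1088 and 738, and the PI365967 salt arrays gave 6372, 4433 and 7205. Within each genotype every salt array lay above every control array. The salt effect was 4.245-fold in Moneymaker (95% interval 3.26 to 5.52, log2 2.09 ± 0.17 SE, n = 3 arrays per group, limma with Benjamini-Hochberg adjusted p = 1.36e-06). It was 5.46-fold in PI365967 (4.197 to 7.10, log2 2.45 ± 0.17, adjusted p = 7.73e-07). The salt effect in PI365967 minus that in Moneymaker was 0.36 ± 0.24 in log2 (95% interval −0.17 to 0.90, adjusted p = 0.364), so a larger response in either genotype was not shown.

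Normalized CHI17 levels fell in the order PI365967 control, Moneymaker control, PI365967 salt and Moneymaker salt, with group means of 10.10, 11.03, 12.55 and 13.11 in log2. No neighbours in this order overlapped in normalized values, although the deposited intensities of both salt groups did. Without salt CHI17 was 1.90-fold lower in PI365967 (1.46 to 2.47, adjusted p = 0.00161). Under salt it was 1.476-fold lower (1.135 to 1.92, log2 −0.56 ± 0.17, adjusted p = 0.0187). That smaller difference lost its call when Moneymaker salt array 1 (−0.54), Moneymaker salt array 3 (−0.53) or PI365967 salt array 2 (−0.49) was left out, with adjusted p = 0.0526, 0.056 and 0.0686.

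CHI14 gave 632, 432 and 359 on the Moneymaker control arrays and 1015, 715 and 1075 on the Moneymaker salt arrays. In PI365967 it gave 143, 110 and 76.3 without salt and 424, 321 and 493 with salt. Salt arrays lay above control arrays in each genotype without overlap, and the PI365967 salt arrays came up to the range of the Moneymaker controls. CHI14 rose 2.283-fold in Moneymaker (1.845 to 2.82, log2 1.19 ± 0.14, adjusted p = 2.21e-05) and 3.395-fold in PI365967 (2.74 to 4.2, log2 1.76 ± 0.14, adjusted p = 1.78e-06). In the authors' second set of log2 values these rises were called too but were only 0.30 and 0.54 in log2.

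The salt effect on CHI14 was 0.57 ± 0.20 larger in PI365967 in log2 (95% interval 0.14 to 1.01), which missed the threshold over all probe sets (adjusted p = 0.0807). Without Moneymaker control array 3 the difference was 0.72 and was called (adjusted p = 0.0239), so this array decided the call. Before salt CHI14 was 3.26-fold lower in PI365967 (2.64 to 4.04, log2 −1.71 ± 0.14, adjusted p = 4.01e-06). Under salt it was 2.195-fold lower (1.774 to 2.72, log2 −1.13 ± 0.14, adjusted p = 5.85e-05). In the authors' second values the mean CHI14 levels differed by only −0.50 without salt and −0.26 under salt, with no test across the tables. Each genotype has its own table there, and how these values were processed is not given. In the order of normalized levels, PI365967 control (6.99) was lowest and Moneymaker salt (9.89) highest, while Moneymaker control (8.70) and PI365967 salt (8.76) overlapped.

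**Figure D1:**
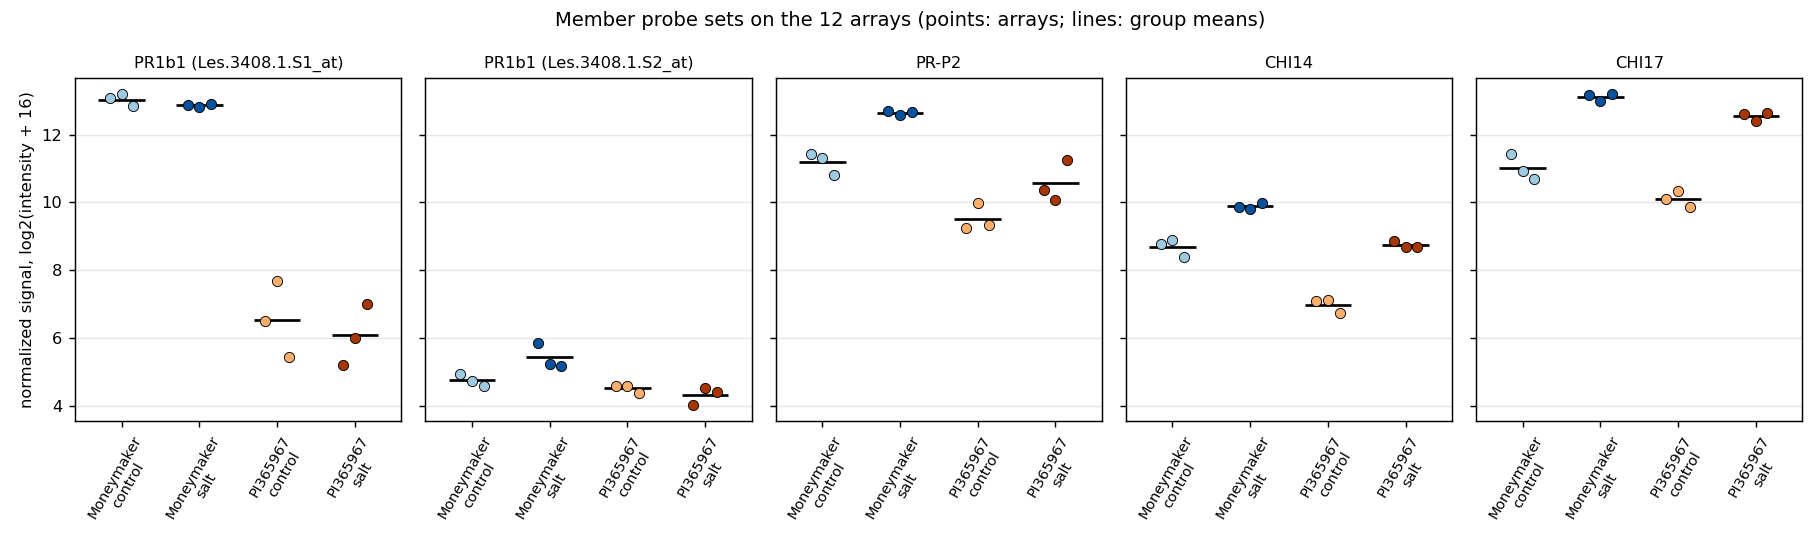
Normalized signal, log2(intensity + 16), of the 5 member probe sets (panels) on each array by group (horizontal axis), with 1 point per array and a line at each group mean. CHI14, CHI17 and PR-P2 rise from control to salt in both genotypes. PR1b1 S1 lies near 13 on the Moneymaker arrays and runs from 5.22 to 7.70 on the PI365967 arrays.

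PR-P2 also was higher under salt in both genotypes, and it was lower in PI365967 than in Moneymaker in either treatment. Its deposited intensities were 3883, 2278 and 1927 in Moneymaker controls and 7042, 4692 and 6493 under salt. In PI365967 they were 662, 847 and 521 without salt and 1246, 878 and 2893 with salt. The groups did not overlap within a genotype, but in PI365967 the lowest salt array lay close to the highest control array.

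The rise of PR-P2 was 2.75-fold in Moneymaker (1.786 to 4.23, log2 1.46 ± 0.28, adjusted p = 0.000976). It was 2.06-fold in PI365967 (1.338 to 3.17, log2 1.04 ± 0.28, adjusted p = 0.0103). Without PI365967 control array 2 and salt array 3 it was 0.92 in log2 there and was still called (adjusted p = 0.00391). The difference of the salt effects was −0.42 ± 0.40 in log2 with an interval from −1.30 to 0.46 (adjusted p = 0.539), which leaves room for effects of either sign. PR-P2 was 3.17-fold lower in PI365967 without salt (2.06 to 4.87, adjusted p = 0.000903) and 4.22-fold lower under salt (2.75 to 6.50, adjusted p = 0.000119). PI365967 salt (10.56 in log2) and Moneymaker control (11.19) overlapped between PI365967 control (9.52) and Moneymaker salt (12.64).

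PR1b1 was far lower in PI365967 than in Moneymaker on its bright probe set, which did not pass the test for salt in either genotype. On S1 the Moneymaker control arrays gave 11352, 8143 and 7505, and the Moneymaker salt arrays gave 7914, 5637 and 7530. The PI365967 control arrays gave 88.2, 167 and 23.3, and the PI365967 salt arrays gave 18.5, 35.7 and 138. The lowest Moneymaker array thus stood far above the highest PI365967 array. Among the probe sets of its array, S1 lay at percentiles 98.5 to 99.5 in Moneymaker and 11.6 to 32.03 in PI365967.

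PR1b1 S1 was 89.4-fold lower in PI365967 without salt (41.2 to 194, log2 −6.48 ± 0.51, adjusted p = 2.97e-06) and 110.0-fold lower with salt (50.7 to 238.5, log2 −6.78 ± 0.51, adjusted p = 1.53e-06). Adding 1 or 64 to the intensities in place of 16 gave −6.81 or −5.83 without salt and −7.22 or −5.97 with salt. Less PR1b1 transcript and a weaker match of the PI365967 transcript to the probes cannot be told apart in these arrays. Without PI365967 control array 2 and salt array 3 the differences were −7.06 and −7.25. They had to widen, since these were the highest S1 arrays of their groups.

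The salt effect on PR1b1 S1 was −0.17 ± 0.51 in Moneymaker (95% interval −1.29 to 0.95, adjusted p = 0.8) and −0.47 ± 0.51 in PI365967 (−1.58 to 0.65, adjusted p = 0.484). These wide intervals come with a larger spread in PI365967, where the SD between arrays was 1.13 without salt and 0.90 with salt, against 0.18 and 0.05 in Moneymaker. In PI365967 the sign turned, to 0.11, without control array 2. The difference of the salt effects was −0.30 ± 0.72 (−1.88 to 1.28, adjusted p = 0.825). It turned to 0.27 without PI365967 control array 2 and to 0.14 without PI365967 salt array 1.

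PR1b1 S2 was dim on every array, at percentiles 0.38 to 15.7, and the files used here give no detection calls. Its intensities were 20.0, 8.80 and 10.2 in Moneymaker controls, 44.7, 16.0 and 21.1 in Moneymaker under salt, 10.1, 7.72 and 4.22 in PI365967 controls, and 0.35, 6.20 and 6.15 in PI365967 under salt. Moneymaker salt arrays overlapped the controls in deposited intensity but not after normalization. S2 was called higher under salt in Moneymaker (log2 0.66 ± 0.18, adjusted p = 0.00825) and not in PI365967 (−0.21 ± 0.18, adjusted p = 0.386). The Moneymaker call was lost without normalization (0.54, adjusted p = 0.0903) and with 1 added to the intensities (1.20, adjusted p = 0.108). Between genotypes S2 was called lower in PI365967 under salt (−1.11 ± 0.18, adjusted p = 0.00044) and not without salt (−0.24 ± 0.18, adjusted p = 0.339). The S1 interval for the salt effect in Moneymaker includes the S2 value, but it uses a spread shared by all 4 groups, PI365967 included. The Moneymaker arrays of S1 themselves lay close together, at 12.84 to 13.20 in normalized log2 without salt and 12.81 to 12.91 with salt. The difference between S1 and S2 was not tested.

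**Figure D2:**
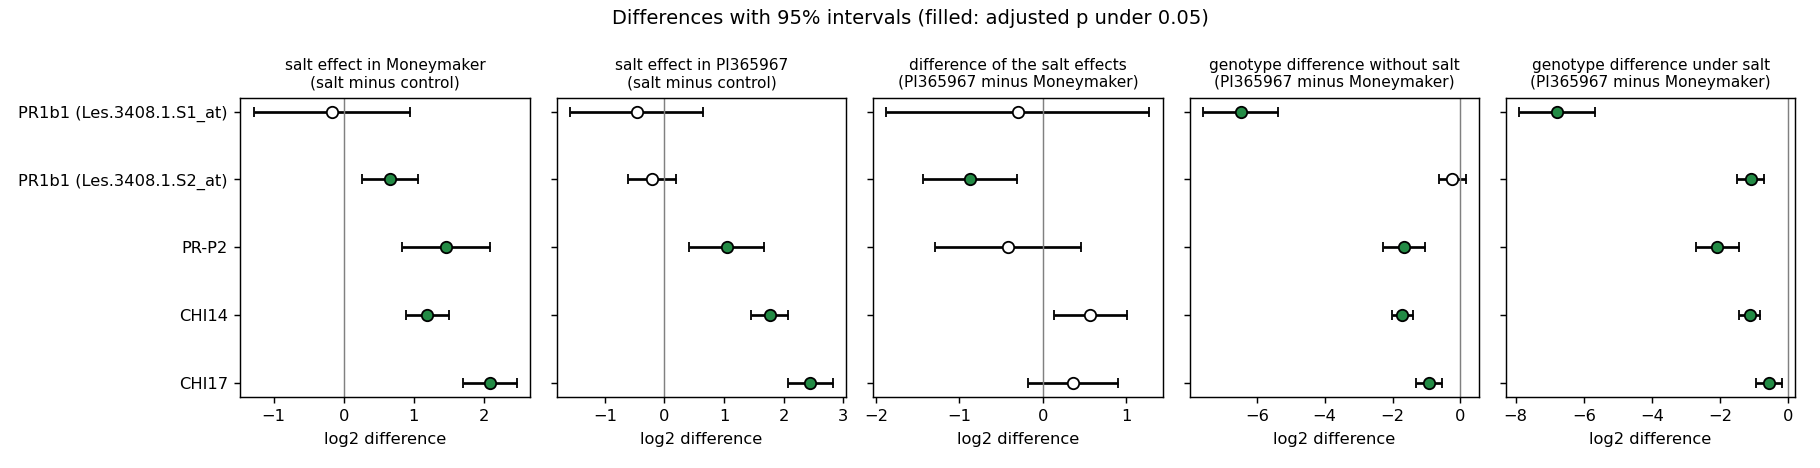
Log2 differences of the 5 member probe sets in the 5 comparisons (panels; each panel has its own horizontal scale), with 95% intervals from limma; filled points have an adjusted p under 0.05. CHI14, CHI17 and PR-P2 lie right of 0 in both salt panels, and PR1b1 S1 lies beyond −6 in both genotype panels.

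Counted together, 4 of the 5 member probe sets were higher under salt in Moneymaker and none was lower, against 57% of all probe sets called there (26% higher, 31% lower). In PI365967 it was 3 of 5 higher and none lower, against 47.3% called (23.3% higher, 24% lower). The median member difference was 1.19 and 1.04 in log2, against −0.04 and 0.00 over all probe sets. Salt arrays of PR-P2, CHI14 and CHI17 lay above the controls without overlap in both genotypes, as did 29.1% of all probe sets in Moneymaker and 27.4% in PI365967. CHI14, CHI17 and PR-P2 were called higher in both genotypes, as were 17.5% of all probe sets. For the difference of salt effects 1 of the 5 was called (S2, lower), against 13.2% of all probe sets (6.15% higher, 7.09% lower). Between genotypes, 4 of 5 were lower in PI365967 without salt, against 36.8% of all probe sets called (19.2% higher, 17.7% lower). All 5 were lower under salt, against 49.1% called (26.6% higher, 22.5% lower). S1, PR-P2, CHI14 and CHI17 were lower in both treatments, as were 12.2% of all probe sets. These comparisons share arrays: each control group enters a salt effect and a genotype difference.

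The other genes of the defence families were read from a list of 19 probe sets. In Moneymaker 6 of these were higher, 6 lower and 7 not called under salt, with a median of −0.07 in log2. In PI365967 it was 5 higher, 4 lower and 10 not called, with a median of 0.08. For the difference of salt effects 2 were higher, 4 lower and 13 not called. That was 10.5% higher and 21.1% lower, against 6.15% and 7.09% of all probe sets. In the salt effects of both genotypes the shares lay near those of all probe sets, and the list did not move one way. The shares for the difference lay above those of all probe sets, in a list chosen with earlier results known.

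Of the 2 other chitinase genes, CHI3 was called higher in both genotypes and CHI9 was called in neither. CHI3 lies next to CHI17 in the gene order of the RefSeq assembly, with no gene between, and signal that such related genes may share cannot be split here. CHI3 gave 15007, 9332 and 9632 in Moneymaker controls, 15192, 11216 and 14327 under salt, 6534, 6894 and 4706 in PI365967 controls, and 13173, 10335 and 14726 under salt. Salt arrays of PI365967 stood clear of its controls, while those of Moneymaker overlapped the controls in deposited intensity but not after normalization. Its rise was 0.34 ± 0.12 in log2 in Moneymaker (adjusted p = 0.0301) and 1.07 ± 0.12 in PI365967 (adjusted p = 2.51e-05). The Moneymaker call was lost when any 1 of 5 of its 6 arrays was left out (0.26 to 0.35) and without normalization (0.28, adjusted p = 0.418). In the authors' second values it was larger, 0.65, and called (adjusted p = 0.000503). The difference of the CHI3 salt effects, 0.73 ± 0.17, was called (adjusted p = 0.0172), but not with median centring (0.46, adjusted p = 0.117) or without normalization (0.79, adjusted p = 0.296). In Moneymaker CHI3 lay at percentiles 99.505 to 99.881 of its arrays without salt and 99.95 to 99.98 with salt. In PI365967 controls it lay at 96.5 to 98.6. Whether this high rank limited the normalized rise in Moneymaker was not tested. Without salt CHI3 was 1.76-fold lower in PI365967 (adjusted p = 0.000328), and under salt it was not called (−0.09 ± 0.12, adjusted p = 0.573). CHI9 had salt effects of −0.07 ± 0.09 and 0.18 ± 0.09 (adjusted p = 0.523 and 0.114). The latter was called without PI365967 control array 2, the highest of its group for CHI9 (0.24, adjusted p = 0.0491), and in the authors' second values (0.33, adjusted p = 0.00401).

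P4 is a PR-1 gene like PR1b1, and a single pseudogene lies between them in the RefSeq gene order. Its intensities were 2760, 1270 and 1714 in Moneymaker controls, 1486, 1122 and 1486 under salt, 408, 1102 and 223 in PI365967 controls, and 267, 402 and 1275 in PI365967 under salt. As with S1, PI365967 control array 2 and salt array 3 were the high ones of their groups. P4 had no called salt effect (−0.23 ± 0.52 and 0.08 ± 0.52, adjusted p = 0.732 and 0.91). It was 3.16-fold lower in PI365967 without salt (1.432 to 6.97, adjusted p = 0.0266). That call was lost when Moneymaker control array 1 or 3 or PI365967 control array 1 or 3 was left out (−2.32 to −1.23 over all arrays left out), and with the replicate number as a block on the 6 control arrays (adjusted p = 0.0653). Under salt the difference, −1.34 ± 0.52, missed the threshold (adjusted p = 0.0507). Without PI365967 control array 2 and salt array 3 it was −1.82 and was called (adjusted p = 0.000187). These arrays were singled out partly for their high P4 values, so leaving them out had to widen the gap. That call is therefore no separate support for a difference.

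Among regulators of defence genes, the transcription factors PTI4, PTI5 and PTI6 are known as partners of the resistance kinase Pto and belong to the ethylene response factors, which bind the GCC box of many pathogenesis-related genes. NPR1 is known as a co-activator of salicylic acid responses, and it is named here after its values were seen. All 4 were higher under salt in Moneymaker, and all 4 salt effects were smaller in PI365967.

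For PTI5 the Moneymaker control arrays gave 685, 511 and 357 and the salt arrays 3982, 2424 and 2783. The PI365967 arrays gave 410, 357 and 456 without salt and 691, 541 and 994 with salt, so all PI365967 salt arrays lay well under those of Moneymaker. PTI5 rose 6.80-fold in Moneymaker (log2 2.77 ± 0.21, adjusted p = 5.85e-07) and 1.64-fold in PI365967 (log2 0.71 ± 0.21, adjusted p = 0.0139), a difference of −2.05 ± 0.29 (adjusted p = 0.00122). The PI365967 call was lost without its control array 1 (0.58, adjusted p = 0.0577) and without control array 2 and salt array 3 together (0.60, adjusted p = 0.107).

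PTI6 gave 1037, 723 and 832 in Moneymaker controls and 2145, 1492 and 1649 under salt, with no overlap. In PI365967 it gave 872, 639 and 622 without salt and 588, 515 and 685 with salt, which overlapped in deposited intensity but not after normalization. PTI6 rose by 1.20 ± 0.09 in log2 in Moneymaker (adjusted p = 7.81e-07) and fell by 0.35 in PI365967 (SE 0.09, adjusted p = 0.00971). The fall was not called without normalization (−0.24, adjusted p = 0.624) or without PI365967 control array 2 and salt array 3 (−0.32, adjusted p = 0.0528). The difference of the PTI6 salt effects was −1.55 ± 0.13 (adjusted p = 7.98e-05).

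PTI4 rose 3.14-fold in Moneymaker (log2 1.65 ± 0.17, adjusted p = 7.29e-06) and was not called in PI365967 (0.31 ± 0.17, adjusted p = 0.151). It was called there without PI365967 control array 2, its highest control (0.48, adjusted p = 0.0334). The difference was −1.34 ± 0.24 (adjusted p = 0.00458). NPR1 rose 1.72-fold in Moneymaker (log2 0.79 ± 0.08, adjusted p = 6.73e-06) and was not called in PI365967 (−0.05 ± 0.08, adjusted p = 0.622), a difference of −0.84 ± 0.11 (adjusted p = 0.00087). The differences of PTI4 (−1.03, adjusted p = 0.112) and NPR1 (−0.54, adjusted p = 0.518) were not called without normalization, nor was the rise of NPR1 in Moneymaker (0.55, adjusted p = 0.0828). Without salt none of the 4 regulators was called between genotypes, with differences from −0.46 (PTI4, adjusted p = 0.0506) to 0.18 (NPR1, adjusted p = 0.104), and under salt all 4 were lower in PI365967, by 0.66 (NPR1) to 2.06 (PTI5) in log2. PTI4 was called lower without salt too when PI365967 control array 2 and salt array 3 were left out (−0.63, adjusted p = 0.0157). Control array 2 was the highest PTI4 control of PI365967, so leaving it out had to widen this gap. That PTI4 call is therefore no separate support for a difference. NPR1 under salt was not called without normalization (−0.66, adjusted p = 0.055). For CHI14, CHI17 and PR-P2 no such difference of salt effects was called.

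**Figure D3:**
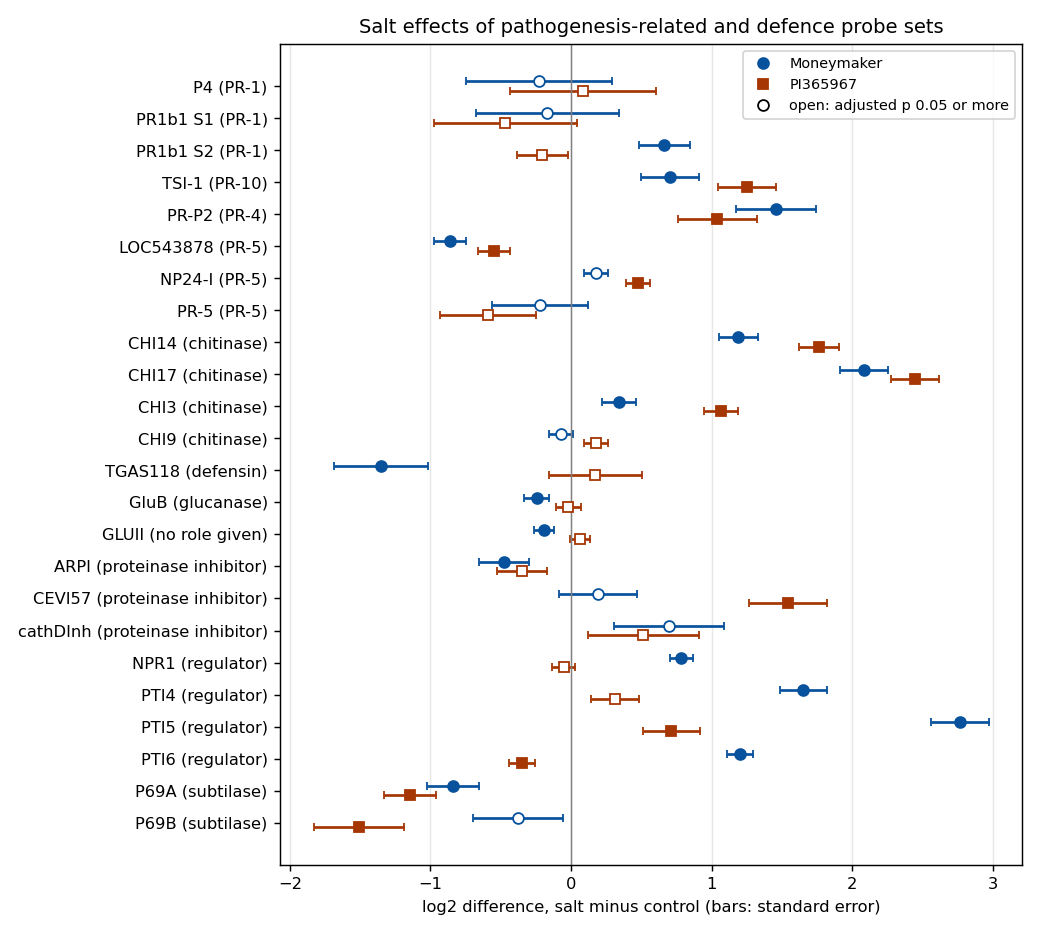
Salt effects (log2 difference, salt minus control, with standard errors) of the member and other defence probe sets in Moneymaker and PI365967; open symbols have an adjusted p of 0.05 or more. The regulators PTI4, PTI5, PTI6 and NPR1 stand further right in Moneymaker, and CHI17 stands beyond 2 in both genotypes.

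Of the remaining families, TSI-1, a stress-induced gene of the PR-10 family, rose in both genotypes. It gave 1094, 1236 and 1081 in Moneymaker controls, 2076, 1127 and 1855 under salt, 2448, 1475 and 1367 in PI365967 controls, and 3963, 3058 and 6119 under salt. The rise was 0.71 ± 0.21 in log2 in Moneymaker (adjusted p = 0.0115), where deposited intensities overlapped, and 1.25 ± 0.21 in PI365967 (adjusted p = 0.000428). The Moneymaker call was lost without Moneymaker control array 1 (0.50 to 0.91 over all arrays left out) and without normalization (0.52, adjusted p = 0.108). CEVI57, a proteinase inhibitor gene, rose by 1.54 ± 0.28 in PI365967 (adjusted p = 0.000793) and was not called in Moneymaker (0.19 ± 0.28, adjusted p = 0.584), although it was in the authors' second values (0.37, adjusted p = 0.00597). The CEVI57 difference of 1.35 ± 0.39 was called (adjusted p = 0.0441). That call was lost in 9 of the 12 fits that left out 1 array, namely for all 6 Moneymaker and all 3 PI365967 control arrays. Values over all 12 fits ran from 0.91 to 1.63.

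LOC543878, listed as PR5 among the RefSeq synonyms and so of the thaumatin-like PR-5 family, fell by 0.86 in Moneymaker (adjusted p = 5.57e-05) and by 0.55 in PI365967 (adjusted p = 0.00208; not called without normalization, adjusted p = 0.0862). P69A, a subtilisin-like protease gene, fell by 0.84 (adjusted p = 0.00227) and by 1.15 (adjusted p = 0.000392). Its relative P69B fell by 1.51 in PI365967 (adjusted p = 0.00243) and was not called in Moneymaker (−0.38 ± 0.32, adjusted p = 0.344), and the difference was not called (−1.13 ± 0.45, adjusted p = 0.126) except without PI365967 control array 2 and salt array 3 (−1.30, adjusted p = 0.049) or without the latter alone. TGAS118, of the defensin family, fell by 1.35 in Moneymaker (adjusted p = 0.00453) and was not called in PI365967 (0.17 ± 0.33, adjusted p = 0.7). That difference, 1.52 ± 0.47, missed the threshold (adjusted p = 0.0557) but was called without PI365967 control array 2 and salt array 3 (1.98, adjusted p = 0.0114). Salt array 3 was the highest P69B and the lowest TGAS118 salt array of PI365967, so leaving it out had to widen both differences. Those calls are therefore no separate support for a difference. The called falls of LOC543878, P69A, P69B and TGAS118 and the lower sums of organ markers under salt ran in the same direction, and a link was not tested. The called rises of CHI14, CHI17, PR-P2 and TSI-1 ran against these sums.

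In the genotype differences 9 of the 19 other defence probe sets were lower in PI365967 without salt, 1 was higher and 9 were not called, against 17.7% lower and 19.2% higher of all probe sets. Under salt 9 were lower, 4 higher and 6 not called, against 22.5% lower and 26.6% higher. The medians were −0.25 and −0.66 in log2, against 0.02 and 0.03 over all probe sets. Among the lower ones without salt, NP24-I, of the PR-5 family, lost its call in 7 of 12 fits that left out 1 array, and P4 in 4. P69A, also among them, had a mean gap of 0.17 in the authors' second values, with no test. Among the higher ones under salt, GLUII lost its call in 4 of 12 such fits and the proteinase inhibitor gene ARPI in 3. Leaf-leaning markers ran the other way, with 3 of 8 higher in PI365967 without salt and 7 of 8 under salt, and none lower. Root-leaning markers were mixed, with 1 of 9 higher and 2 lower without salt, and 3 higher and 2 lower under salt.

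The widest genotype gaps after PR1b1 were in CEVI57, cathDInh and PR-5, the last 2 named after their values were seen. CEVI57 gave 2663, 1634 and 1668 in Moneymaker controls and 34.5, 29.0 and 29.8 in PI365967 controls. Under salt it gave 2316, 1548 and 2030 in Moneymaker and 80.6, 60.2 and 288 in PI365967, so the genotypes stayed far apart in both treatments. CEVI57 was 36.8-fold lower in PI365967 without salt (log2 −5.20 ± 0.28, adjusted p = 1.15e-07) and 14.4-fold lower with salt (−3.85 ± 0.28, adjusted p = 1.15e-06), on the scale with 16 added. As its PI365967 control intensities are dim, these folds depend on that number: adding 1 or 64 gave −5.75 or −4.23 without salt and −4.03 or −3.43 with salt. For CEVI57, cathDInh and PR-5, as for every gene lower in PI365967 here, less transcript and a weaker probe match cannot be told apart. The inhibitor gene cathDInh, listed for cathepsin D, was 11.1-fold lower without salt (adjusted p = 4.84e-05) and 12.6-fold lower with salt (adjusted p = 2.14e-05). In the authors' second values, in a separate table for each genotype, its mean levels differed by only −0.40 and −0.82 in log2. The size of this gap thus depends on the set of values used. PR-5, a thaumatin-like gene, was 4.51-fold lower without salt (adjusted p = 0.000548) and 5.83-fold lower with salt (adjusted p = 0.000113). TSI-1 ran the other way, 1.77-fold higher in PI365967 without salt (adjusted p = 0.00854; 0.121 without normalization and 0.0552 with the block on the 6 control arrays) and 2.59-fold higher with salt (adjusted p = 0.000236).

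**Figure D4:**
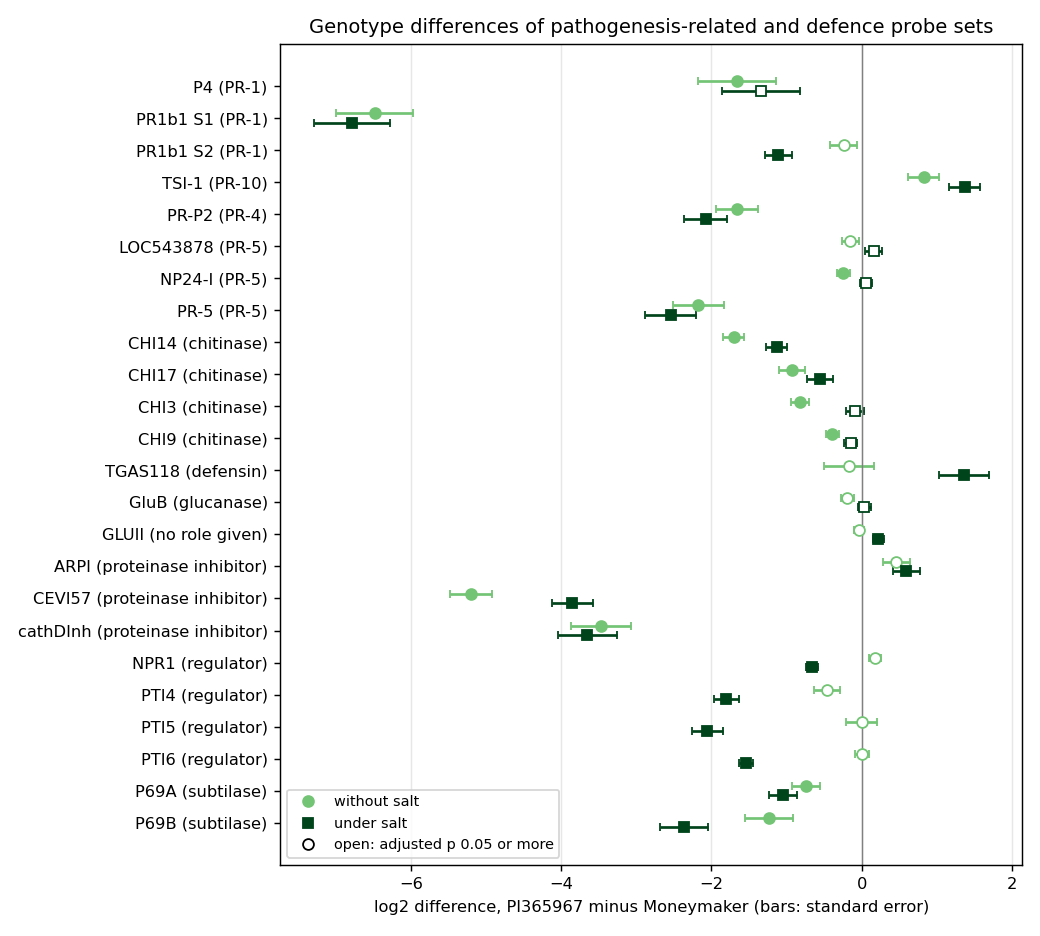
Genotype differences (log2, PI365967 minus Moneymaker, with standard errors) of the member and other defence probe sets without and under salt; open symbols have an adjusted p of 0.05 or more. PR1b1 S1 lies furthest left, beyond −6, followed by CEVI57 and cathDInh, and TSI-1 lies right of 0 in both treatments.

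The genes with the most similar pattern were taken as those with the highest Pearson's r over the 12 arrays, among 700 or 701 probe sets with a gene name. The 12 arrays share 4 group means, so the order describes these groups only. For PR1b1 S1, which falls into 2 clusters by genotype, they were psi14A (r = 0.987), the metallothionein gene MT4 (0.987, read from a probe set whose probes may match related transcripts) and psi14B (0.985). For PR-P2 they were the invertase gene Wiv-1 (0.985), EIL3 (0.967), an EIN3-like factor of ethylene signalling, and LHP1 (0.963). CHI14 ran most like PPCK1 (0.977), a kinase gene of phosphoenolpyruvate carboxylase, the ribonuclease gene rnalx (0.970) and krp1 (0.964). CHI17 ran most like ER21 (0.983), CIP2b (0.983) and the ethylene receptor gene ETR6 (0.979).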

How the data were processed

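The 12 arrays, 3 in each of 4 groups, were grouped by the genotype, treatment and replicate in the labels. The values are the authors' deposited intensities, 1 linear value per probe set and array. How background was corrected and probes were summarised is not given in the sources used here. The authors also deposited log2 values of a second set for 8074 of the probe sets, each genotype in its own table, used as an alternative for salt effects. After 108 array controls were removed, log2(intensity + 16) was quantile normalized, since array medians spanned 0.90 in log2, over the 0.2 set as limit. Group means were fitted to 12 arrays with limma 3.58.1 in R 4.3.3 (8 residual and 3.11 prior degrees of freedom), with 5 two-sided contrasts and Benjamini-Hochberg adjustment over 10101 probe sets, called under 0.05. The script was tested on simulated data. Values after ± are standard errors; 3 arrays per group limit precision.

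Members and lists were chosen with earlier results of these data known. All members are named, with up to 6 called defence probe sets of largest change per salt effect, members' families, and the 3 named probe sets with the highest r. The defence list followed symbol patterns, with cathDInh added by symbol. Of 909 annotated probe sets, 885 matched the RefSeq table (assembly SLM_r2.1), used for synonyms and gene order. Sequences are not shown. Alternatives were median centring, no normalization, 1 or 64 as pseudocount, a filter on low values, fits on 6 arrays, trended robust eBayes, the second values, a replicate block and leaving out each array. The fit without PI365967 control array 2 and salt array 3 was added after the data were seen. Same-numbered control arrays of both genotypes deviated together from their group means (r = 0.1162 to 0.1625 for 3 pairs, −0.1266 to 0.0074 for other pairs), so a fit of the 6 control arrays with the replicate number as a block was added too; in no other pair of groups did all 3 pairs exceed 0.1.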

Additional observations from a re-analysis of the deposited data

Results flagged for a closer look

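PR1b1 S2 was the only member probe set whose salt effect differed between the genotypes by a test of the difference itself. The difference, PI365967 minus Moneymaker, was −0.87 ± 0.26 in log2 (limma, adjusted p = 0.0473). Its Moneymaker salt effect was 0.66 and its PI365967 salt effect −0.21. All 12 intensities lay between 0.35 and 44.7, at percentiles 0.38 to 15.7 of their arrays. The call was lost in 11 of 12 fits that left out 1 array (−0.996 to −0.65 over all 12). The bright probe set of the gene, S1, gave −0.30 ± 0.72 (adjusted p = 0.825).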

How the results depend on the processing

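Of 528 alternative values for the member probe sets, 500 kept their direction and their side of the threshold, 23 lost a call, 1 gained a call and 4 turned their sign. All salt and genotype calls for CHI14 and PR-P2, the salt calls for CHI17 and the genotype calls for PR1b1 S1 held under each alternative run. The authors' second values served for salt effects only, so no genotype call was tested in them. Their mean genotype gaps without and under salt were −0.50 and −0.26 for CHI14, smaller than in the main fit. For PR-P2 they were −1.83 and −2.02, and for S1 −6.69 and −6.55. Without normalization the count of called probe sets was 3534 against 5756 for salt in Moneymaker, 1983 against 4781 for salt in PI365967, 292 against 1337 for the difference, 1585 against 3718 between genotypes without salt and 2020 against 4961 under salt; the cause was not tested. The median over all probe sets then was −0.25, 0.02, 0.30, −0.22 and 0.05. The higher share of calls went from 45.6% to 28.4% for salt in Moneymaker, from 46.4% to 60.3% for the difference (35.4% with median centring) and from 52% to 18.7% between genotypes without salt. The 4 turned signs were all of PR1b1 S1, none called in any fit: its salt effect in PI365967 was 0.063 in the authors' second values and 0.11 without PI365967 control replicate 2 (−1.03 to 0.11 over the arrays left out), and its difference was 0.27 without that replicate and 0.14 without PI365967 salt replicate 1 (−0.86 to 0.27). The S2 difference was also not called without normalization (−0.75), with 1 (−2.15) or 64 (−0.35) added, with trended robust eBayes (−0.87, adjusted p = 0.0575) and without PI365967 control array 2 and salt array 3 (−0.88, adjusted p = 0.11). CHI17 between genotypes under salt was not called without normalization (−0.47, adjusted p = 0.215). Leaving out 1 array gave 5274 to 5871, 4158 to 4825, 929 to 1376, 3078 to 3820 and 4365 to 4980 calls in the 5 comparisons. The replicate block on all arrays gave 5730, 4735, 1199, 3660 and 4888 calls, and S2's difference was not called with it (adjusted p = 0.0615). For the genotype difference without salt, same-numbered control arrays deviated together, but the labels do not say that the numbers pair them. Different-numbered PI365967 control and salt arrays reached a similar r, up to 0.1514. The replicate block on the 6 control arrays gave 3431 calls and changed no member call. Between Moneymaker control and salt arrays, deviations of same-numbered pairs correlated at r = 0.0266 to 0.1116. Other pairs of these groups gave −0.1182 to 0.0499, which overlaps, so a pairing there stayed unclear. Dim signals limit PR1b1 S2 in both genotypes and PR1b1 S1, CEVI57, cathDInh and PR-5 in PI365967.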
